A study of Mus musculus with 4 samples.

Results

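The dentate gyrus (DG) of mice 1 h after the last of 11 electroconvulsive stimulations (ECS) was compared with the DG of mice 1 h after their only ECS. Both groups were dissected at the same time after a current, so they differ in the 10 sessions that the 11 ECS mice had received before. Each of these sessions brought handling and isoflurane as well as a current, and their parts cannot be told apart here. The measure is the log2 ratio of the signal on the 11 ECS array over that on the single ECS array. Probe sets that the array's annotation ties to 1 gene symbol were kept where the signal exceeded 50 units on at least 1 of these 2 arrays, control probe sets left out. These were 11183 of the 20380 probe sets with a single symbol and of the 22626 besides controls. They stand for 7371 of the 12393 genes with a symbol on the array.

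All mice were C57Bl/6, with no transgene or deletion named in the labels. In the methods they are males bought at 8 weeks of age and housed before the experiment, so they were older than that at dissection. The single ECS group received 1 bilateral current of 25 mA for 1 s (100 pulses per s, 0.5 ms each) through ear clips under isoflurane. The 11 ECS group received 11 of them at 4 sessions a week over up to 3 weeks. A sham array (handled alike, no current, 1 h) and a 10 ECS array (48 h after the 10th ECS) give reference levels. The sham mice were thus handled 1 h before dissection, and the 10 ECS mice 48 h before. Recent handling and isoflurane therefore differ between both reference arrays, and their part cannot be told apart from that of earlier ECS. Each of the 4 arrays held the pooled RNA of 3 mice, and each group had 1 array, so no value has a replicate, a standard error or a test, and 2-fold below is a size. For 3 of the 4 samples the free-text description names a treatment that differs from the title and the treatment field. Groups follow the titles here, and the description of the 11 ECS sample names fluoxetine. The tissue field says hippocampus where the titles say DG.

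Seizure activity switches on immediate early genes in granule cells (GCs), the principal neurons of the DG. Their transcripts appear within minutes without new protein synthesis, through factors such as CREB and serum response factor, and their products include transcription factors and synaptic proteins such as Arc. Repeated seizures are also known to alter slower programs in the DG, among them neuropeptide synthesis and the calcium buffer calbindin, a marker of mature GCs.

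Most transcripts had similar signals on both arrays. The median log2 ratio over the 11183 probe sets was -0.02, the middle 50% lay between -0.17 and 0.13, and the 1st and 99th percentiles were -0.90 and 0.78. A signal at least 2-fold higher after 11 ECS was found for 53 probe sets (0.474%) of 49 genes, and one at least 2-fold lower for 80 (0.715%) of 72 genes. Read by the brightest probe set of each gene, the higher genes numbered 37 (0.502%) and the lower ones 43 (0.583%). At 3-fold, 12 probe sets were higher and 15 lower. Where a gene had several of these probe sets, their ratios scattered around the gene's mean with a pooled SD of 0.22 on the log2 scale (2572 genes, 6381 probe sets). This is the only error at hand, and it covers probe sets, not mice or arrays.

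Many of the higher probe sets were dim. Only 20 of the 53 higher probe sets exceeded 50 units on both arrays, against 47 of the 80 lower ones. The SD of the log2 ratio was 0.385 among probe sets with 50 to 100 units on the brighter array and 0.252 among those over 1000 units. In the brightest class, 3 probe sets were at least 2-fold higher (Penk, Npy and Tmsb10) and 12 lower. The highest ratio of all, a log2 bound of at least 2.44, was that of Polr2f, an RNA polymerase subunit named after its values were seen, with 65.1 units after 11 ECS and a signal under the floor of 12 units after a single ECS. The brighter probe set of Polr2f read 471 and 433 units (-0.12), so the probe sets of this gene disagree. Lasp1, an actin binding protein also named so, had 1 probe set at 1.89 (121 and 450 units), while its 5 others lay between -0.14 and 0.13. The 8 probe sets just inside the limit of 50 units had log2 ratios from -0.28 to 2.06, and the 8 just outside from -0.71 to 0.38. The arrays themselves were alike in median signal (56.3 units after a single ECS, 56.7 after 11 ECS) and in the 3' to 5' ratio of Gapdh (1.06 and 0.985), which reports RNA integrity.

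**Figure D1:**
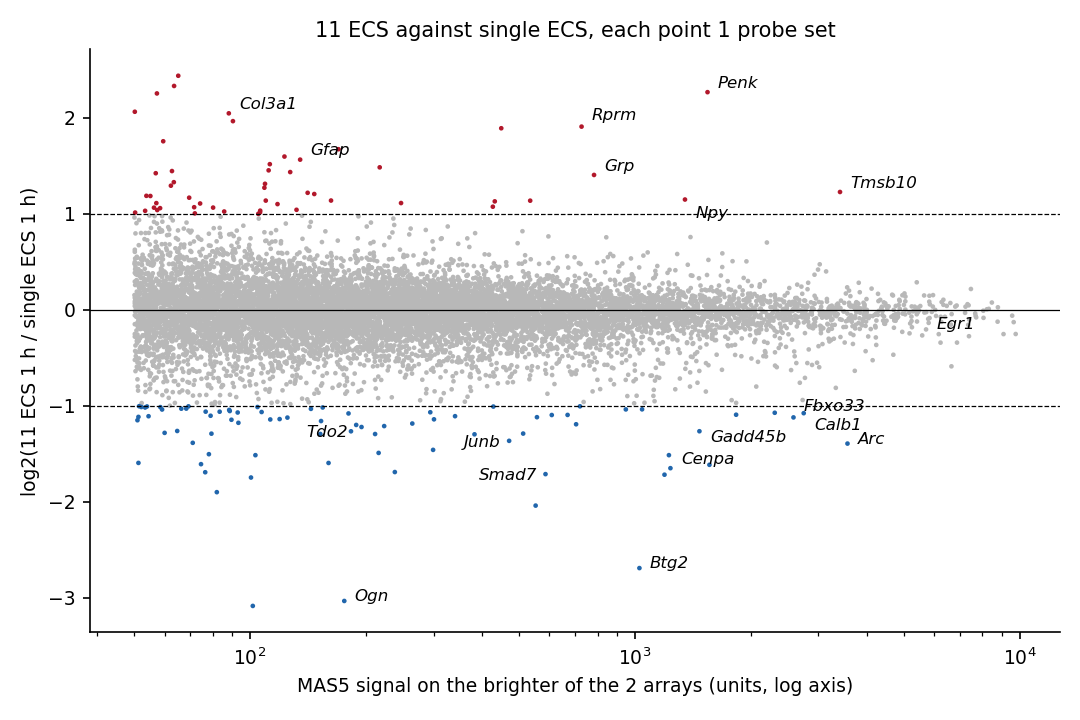
Log2 ratio of 11 ECS over single ECS (vertical axis) against the MAS5 signal on the brighter of both arrays (horizontal axis, log scale), each point 1 of 11183 probe sets. Red points are at least 2-fold higher and blue points at least 2-fold lower after 11 ECS, with the dashed lines at 2-fold. Penk leads the bright probe sets upward at 2.27 and Btg2 downward at -2.69, while many other red points lie near the limit of 50 units.

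The early transcription factors were mostly lower after 11 ECS than after 1 ECS. Of 34 listed genes, 30 were measured, 6 were at least 2-fold lower and 0 higher, and 25 of the 30 lay below 0. Their median log2 ratio was -0.46, beside -0.005 over all 7371 genes, of which 50.8% lay below 0. The activity-regulated effectors include proteins of synapses and signalling, and others such as the histone variant Cenpa. Among them 5 of 25 measured genes were at least 2-fold lower, 0 higher and 22 below 0, with a median of -0.61.

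Promoters of 3 early genes that were lower after 11 ECS are shown, because the cyclic AMP response element, the site through which CREB acts, could be read in them. They were picked for this match and do not stand for all lower genes. Each is the 250 bases before a transcription start in RefSeq (GRCm38.p6), written 5' to 3' on the gene's strand, and capitals mark matches to the motifs described after the sequences. Btg2 lies at chr1:134079156-134079405 (minus strand), Nr4a1 at chr15:101266596-101266845 (plus strand) and Homer1 at chr13:93303507-93303756 (plus strand).
Btg2: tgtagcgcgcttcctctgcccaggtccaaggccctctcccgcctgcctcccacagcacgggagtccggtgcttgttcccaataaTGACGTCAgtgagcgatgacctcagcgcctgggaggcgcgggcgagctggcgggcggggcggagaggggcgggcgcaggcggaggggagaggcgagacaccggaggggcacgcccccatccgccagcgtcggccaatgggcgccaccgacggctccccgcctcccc
Nr4a1: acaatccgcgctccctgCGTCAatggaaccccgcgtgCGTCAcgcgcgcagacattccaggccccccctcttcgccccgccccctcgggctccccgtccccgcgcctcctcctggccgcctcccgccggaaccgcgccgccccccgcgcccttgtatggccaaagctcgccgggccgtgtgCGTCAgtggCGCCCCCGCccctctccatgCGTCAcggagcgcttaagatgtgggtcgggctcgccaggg
Homer1: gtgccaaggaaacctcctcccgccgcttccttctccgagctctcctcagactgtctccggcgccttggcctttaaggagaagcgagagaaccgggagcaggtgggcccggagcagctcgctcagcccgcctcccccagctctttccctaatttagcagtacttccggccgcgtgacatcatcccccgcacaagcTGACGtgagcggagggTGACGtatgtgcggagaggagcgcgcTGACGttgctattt

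The motifs searched on both strands were the full element TGACGTCA, its core TGACG (which the full element contains), the AP-1 site TGANTCA, the Egr site GCGGGGGCG and the CArG box of serum response factor. Btg2 holds the full element from position -166, counted back from the start site. Nr4a1 holds 4 core elements, at -233, -213, -69 and -40, and an Egr site at -60, all on the opposite strand. Homer1 holds 3 core elements, at -56, -40 and -14, and the window of its other RefSeq start holds 0 matches. Among other genes at least 2-fold lower, the windows of Cenpa, Gadd45b, Gadd45g, Fbxo33 and Sertad1 hold 0 matches to these motifs. Those of Junb and Egr4 hold the core element.

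In windows of 300 bases, 250 before and 50 after the start, the core element was present in 18 of 27 windows (66.7%) of the early transcription factors and in 12 of 29 (41.4%) of the effectors. It was present in 32.3% of the 7953 windows of all genes measured and in 20.8% of all 32851 windows of the table. The Egr site was in 6 windows (22.2%) of the early transcription factors, beside 6.24% over all genes measured, and the CArG box in 4 (14.8%), beside 1.48%. Windows were on hand for 35 of the 43 lower genes and for 29 of the 37 higher genes. The core element was in 13 of 43 windows (30.2%) of the lower genes and in 5 of 33 (15.2%) of the higher genes, beside 32.3% over all genes measured. The full element was in 3 windows (6.98%) of the lower genes and in 0 of the higher genes, beside 3.04% over all genes measured. The AP-1 site was in 1 window (2.33%) of the lower and in 3 (9.09%) of the higher genes, beside 4.79%. The Egr site was in 2 windows (4.65%) of the lower genes and in 0 of the higher genes and of the effectors. The CArG box was in 0 windows of each of these sets. A match of letters is a description of the window and does not show that a factor binds there.

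Btg2, an antiproliferative transcriptional cofactor, had the lowest ratio of the early genes. It read 112 units in sham, 1028 after a single ECS, 122 after 10 ECS and 159 after 11 ECS, 6.45-fold lower after 11 ECS than after a single ECS. The other Btg2 probe set read 552 units after the first ECS and 135 after the 11th, a log2 ratio of -2.04. Only the single ECS array stood out for this gene, and the 11 ECS array lay close to the arrays without recent ECS.

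Egr4, a zinc finger factor of the Egr family, read 26.5 units in sham, 299 after a single ECS, 27.1 after 10 ECS and 109 after 11 ECS (log2 ratio -1.46). Junb, an AP-1 subunit, read 62.7, 471, 65.4 and 183 units in the same order (-1.36). Nr4a1, an orphan nuclear receptor, read 177, 1833, 103 and 860 units (-1.09). In contrast to Btg2, these genes stood on the 11 ECS array well above both arrays without recent ECS, and below the single ECS array. Nfil3, a bZIP repressor named here after its values were seen, was the fifth of the 6 and read 608 units after the first ECS and 285 after the 11th (-1.09). Maff, a small Maf protein, completes the 6 with 51 and 23 units, and its ratio of -1.15 shrank to -0.03 with a floor of 50 units.

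Fos, the classical AP-1 partner, just missed 2-fold. It read 139 units in sham, 1833 after a single ECS, 82.8 after 10 ECS and 937 after 11 ECS, 1.96-fold lower after 11 ECS. Bhlhe40, a basic helix-loop-helix repressor of the clock, read 662, 1060, 326 and 542 units (-0.97). For Bhlhe40 the 10 ECS array was lower than sham by nearly the same log2 amount (-1.02), which was not so for Junb (0.06). Egr1, the best known Egr factor, was nearly alike at 1 h, with 5713 units after the first ECS and 4963 after the 11th (-0.20), over 988 in sham and 539 after 10 ECS.

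The 5 early transcription factors above 0 were Klf5 (log2 ratio 0.63), Cebpd (0.46), Crem (0.08), Mafk (0.07) and Klf6 (0.04), named after their values were seen. None of them reached 1000 units on any array. Klf5 rested on 32.5 and 50.2 units, and Cebpd read 459 units in sham, 239 after a single ECS, 395 after 10 ECS and 329 after 11 ECS, so it was not higher than sham after either ECS.

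Among the effectors, Cenpa, the centromeric histone H3 variant, read 45.8 units in sham, 1238 after a single ECS, 25.6 after 10 ECS and 395 after 11 ECS (log2 ratio -1.65). Arc, a protein of activated synapses, read 119, 3570, 67.5 and 1360 units (-1.39). Homer1, the gene of a postsynaptic scaffold, was read by a probe set under the floor of 12 units on both arrays without recent ECS. That probe set read 264 units after the first ECS and 116 after the 11th (-1.18). The other Homer1 member probe set was above the floor on all arrays, with 34.0 units in sham and 20.8 after 10 ECS, and gave -0.78. The signal under the floor thus belongs to 1 probe set and not to the whole gene. All 3 were high on both arrays taken 1 h after a current, and lower on the one after 11 ECS.

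Fbxo33, an F-box protein, read 599 units in sham, 2584 after a single ECS, 450 after 10 ECS and 1189 after 11 ECS (-1.12), and its other probe set gave -1.07. Sertad1, the fifth effector at least 2-fold lower and named after its values were seen, read 720 units after the first ECS and 359 after the 11th. Not every effector was lower. Rgs4, a regulator of G protein signalling, read 1373 and 1950 units (0.51), Nptx2, a pentraxin that clusters AMPA receptors, 1305 and 1674 (0.36), and Sorcs3 144 and 177 (0.30). These 3, named after their values were seen, are all that lay above 0. Bdnf, also named so, differed little at 2069 and 1851 units (-0.16).

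**Figure D2:**
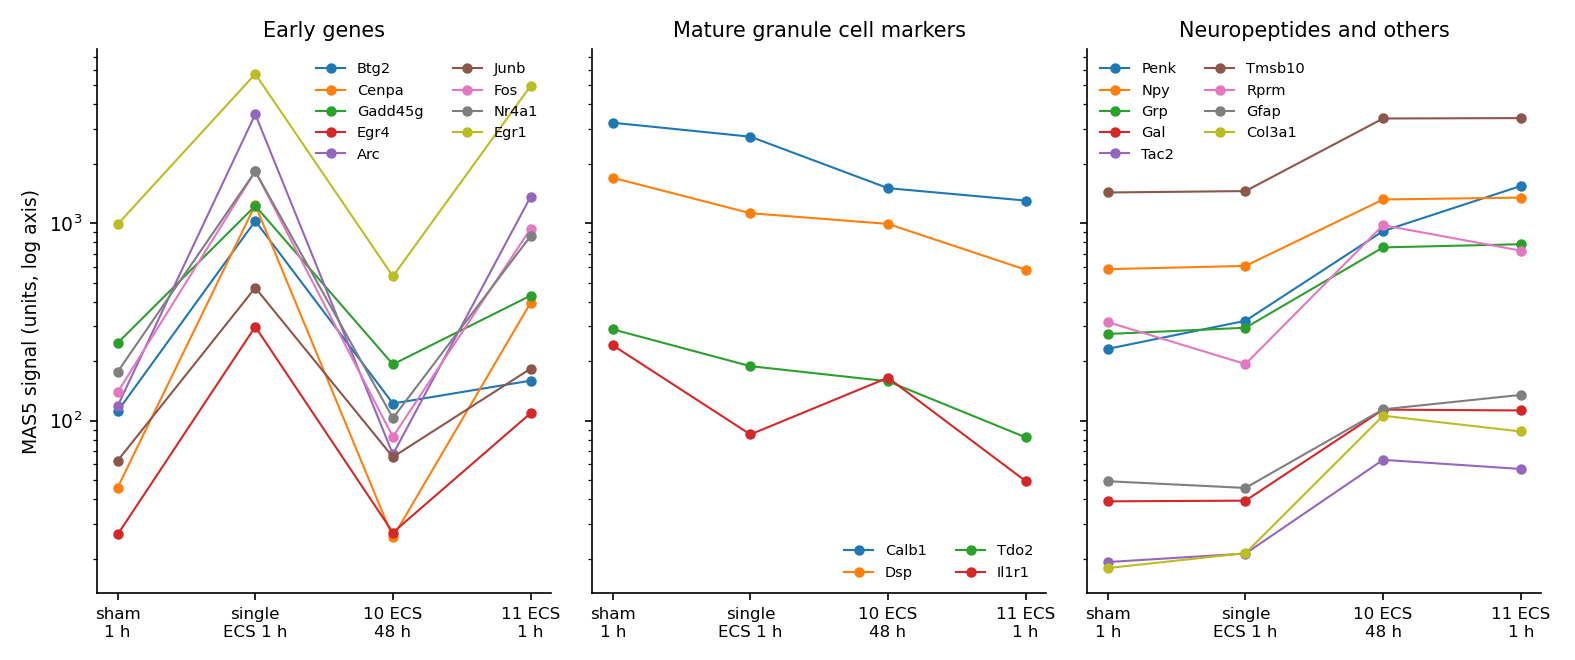
MAS5 signals (vertical axis, log scale) on the 4 arrays for early genes, mature GC markers and genes higher after 11 ECS, each point 1 array of RNA pooled from 3 mice and each line 1 gene. Arc peaks at 3570 units after a single ECS and reaches 1360 after 11 ECS. Calb1 reads 2747 and 1304 units on these arrays, and Penk 321 and 1545.

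Of the Gadd45 stress sensors, Gadd45g and Gadd45b were lower and Gadd45a was not. Gadd45g read 247 units in sham, 1226 after a single ECS, 193 after 10 ECS and 430 after 11 ECS (log2 ratio -1.51). Gadd45b, which takes part in DNA demethylation in activated neurons, read 172, 1472, 164 and 613 units (-1.26), and its other probe set gave -1.61. With Btg2 they were the 3 of 20 measured growth arrest and DNA damage genes at least 2-fold lower, 0 were higher, and the median was -0.10. Gadd45a had dim signals, at 30.7 and 53.5 units (0.80, or 0.10 with a floor of 50 units).

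Of 15 genes that restrain MAP kinase or cytokine signalling by feedback, 1 was at least 2-fold lower, 0 were higher, and the median was -0.11. That gene was Smad7, which blocks TGF-beta receptors, with 95.8 units in sham, 586 after a single ECS, 94.7 after 10 ECS and 179 after 11 ECS (-1.71). Errfi1, an inhibitor of EGF receptors, read 467, 1785, 362 and 931 units (-0.94), and its other probe set gave -1.16. Dusp1, a MAP kinase phosphatase, had a log2 ratio of -0.66 and Spry2, a Sprouty inhibitor of receptor kinases, one of -0.64. Inhba, the activin A subunit, read 126, 947, 114 and 572 units (-0.73). Smad7 was the only one of 17 measured genes of neurotrophin, activin and TGF-beta signalling at least 2-fold lower, 0 were higher, and the median was -0.02.

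Outside the lists, Gm13889 read 261 units in sham, 1194 after a single ECS, 214 after 10 ECS and 364 after 11 ECS (-1.72). Neat1, a long noncoding RNA of paraspeckles, read 147, 513, 130 and 210 units (-1.29). Both had the shape of the early genes, high 1 h after a single ECS and less so after 11 ECS. A list of PCR targets (Fos, Gadd45b, Nr4a1, Arc and Egr1) was below 0 in 5 of 5 genes, with 3 at least 2-fold lower, 0 higher and a median of -1.09. These targets were picked for the same comparison, so the list is not independent evidence of its direction.

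Calb1, the gene of calbindin, was 2.11-fold lower after 11 ECS than after a single ECS. It read 3234 units in sham, 2747 after a single ECS, 1507 after 10 ECS and 1304 after 11 ECS, and its other probe set gave -1.69. Tdo2, tryptophan 2,3-dioxygenase, read 290, 189, 158 and 82.3 units (-1.20). Dsp, the junction protein desmoplakin, read 1702, 1125, 993 and 582 units (-0.95, and -0.89 by its other probe set). For these 3 genes both arrays of repeatedly stimulated mice lay below both others. Most early genes instead stood higher on the 11 ECS array than in sham, but some, such as Bhlhe40, read below sham on both arrays of repeatedly stimulated mice too.

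Il1r1, the interleukin-1 receptor, completes the mature GC markers. It read 241 units in sham, 85.1 after a single ECS, 165 after 10 ECS and 49.4 after 11 ECS (-0.78), so it was lowest on the 2 arrays with a recent ECS. All 4 markers were below 0, 2 of them at least 2-fold and 0 higher, with a median of -1.01. The study itself reported lower expression of these 4 genes after repeated ECS, so the list is not independent evidence of its direction. In bulk tissue, fewer cells of a type and less RNA per cell cannot be told apart. The 5 measured GC identity genes had 0 at least 2-fold apart in either direction and a median of -0.11. Among them Prox1, the GC fate factor, read 69.8 and 62.7 units (-0.15), and Lct, lactase, 444 and 406 units (-0.13), while Cdh9, a cadherin, read 879 and 1135 (0.37).

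Other lower genes shared with Calb1 the lowest level after 11 ECS and the next lowest after 10 ECS. Rph3a, the Rab3 effector rabphilin, read 230 units in sham, 183 after a single ECS, 104 after 10 ECS and 76.2 after 11 ECS (log2 ratio -1.26). Capn3, a calpain protease, read 232, 195, 123 and 83.7 units (-1.22). Tenm1, a teneurin, read 140, 103, 51.2 and 36.2 units (-1.51). Lrrc20 read 151, 152, 111 and 62.2 units (-1.29), so unlike Calb1 it was not lower after a single ECS than in sham. In each of these 4 genes both arrays of repeatedly stimulated mice were below both others.

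Rasd1, a dexamethasone-inducible Ras protein, combined both patterns. It read 243 units in sham, 383 after a single ECS, 88.0 after 10 ECS and 156 after 11 ECS (-1.30). Its level was thus higher after ECS than before in each pair of arrays, on a lower base after 10 ECS (log2 ratio of 10 ECS over sham -1.46). Among 21 glucocorticoid target and clock genes, 0 were at least 2-fold apart in either direction, 14 were below 0, and the median was -0.21. Sgk1, a serum- and glucocorticoid-induced kinase, read 3329 units after the first ECS and 1897 after the 11th (-0.81), and Per1, a clock gene, 1099 and 683 (-0.69).

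The neuropeptide precursors were split, with 5 of 12 measured genes at least 2-fold higher, 0 lower and a median of 0.17. Penk, which encodes the enkephalin precursor, had the largest difference. It read 231 units in sham, 321 after a single ECS, 913 after 10 ECS and 1545 after 11 ECS, 4.82-fold higher after 11 ECS than after a single ECS. Penk was higher on the later array in both pairs, and its single probe set among the members leaves no second reading.

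Grp, gastrin-releasing peptide, read 275 units in sham, 296 after a single ECS, 755 after 10 ECS and 784 after 11 ECS (log2 ratio 1.41). Npy, neuropeptide Y, read 586, 608, 1320 and 1350 units (1.15). Gal, galanin, read 39.0, 39.3, 114 and 113 units (1.52, or 1.17 with a floor of 50 units). In these genes sham and single ECS lay close together, as did 10 ECS and 11 ECS, so the arrays fell into pairs by whether the mice had had earlier sessions.

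Tac2, the neurokinin B precursor, followed at a dim level with 19.2, 21.2, 63.3 and 56.9 units (1.42, or 0.19 with a floor of 50 units). The remaining precursors did not reach 2-fold in either direction. Cck, cholecystokinin, a bright one, read 2392 units after the first ECS and 1864 after the 11th (-0.36). Of 9 granins and prohormone processing genes, 0 were at least 2-fold apart, 7 were above 0 and the median was 0.13. Scg2, secretogranin II, read 3026 and 3563 units (0.24) and Chgb, chromogranin B, 5351 and 5956 (0.15).

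Rprm, a mediator of cell cycle arrest, was 3.76-fold higher after 11 ECS. It read 316 units in sham, 194 after a single ECS, 978 after 10 ECS and 727 after 11 ECS, lower after a recent ECS and higher after earlier sessions. Tmsb10, the actin monomer binder thymosin beta 10, read 1433, 1456, 3397 and 3414 units (log2 ratio 1.23), and its 2 other probe sets gave 1.60 and 1.08. Rasl10a, a small GTPase, read 585, 198, 786 and 433 units (1.13). It was low on the single ECS array, and the 11 ECS array was itself below sham.

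Among 18 measured genes of immature neurons and neurite growth, 2 were at least 2-fold higher (Tmsb10 and Igfbpl1), 0 lower, 11 above 0, and the median was 0.17. Igfbpl1, a marker of young neurons, read 49.6 units in sham, 47.0 after a single ECS, 107 after 10 ECS and 127 after 11 ECS (1.44). Dcx, the microtubule protein doublecortin of migrating neurons, read 91.1, 69.1, 138 and 137 units (0.98), but its other probe set gave 0.53. Dpysl3 read 122 units after the first ECS and 236 after the 11th (0.95, and 0.40 by its other probe set). Neurod2, named after its values were seen, was lower at 593 and 324 units (-0.87). The list thus held members on both sides.

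Several astrocyte genes that are known to mark reactive cells were higher. Of 15 measured genes, 3 were at least 2-fold higher, 0 lower, and the median was 0.12. Gfap, the intermediate filament of astrocytes, read 49.3 units in sham, 45.6 after a single ECS, 114 after 10 ECS and 135 after 11 ECS (1.57, and 1.31 by its other probe set). Serpina3n, a secreted protease inhibitor of reactive astrocytes, read 91.2, 73.7, 150 and 162 units (1.14), and Cd44, a hyaluronan receptor, 43.2, 34.4, 39.9 and 74.2 units (1.11, or 0.57 with a floor of 50 units). Vim, vimentin, was higher on its 3 probe sets (0.77, 0.82 and 0.80). Gja1, Aldoc and Slc1a3, which label astrocytes at large and were named after their values were seen, had ratios of -0.01, 0.02 and -0.23. The summed signal of the list was 14553, 12912, 13089 and 13614 units in the order of the arrays.

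Of 18 extracellular matrix genes, 4 were at least 2-fold higher, 0 lower, 14 above 0, and the median was 0.25. All 4 were collagens. Col3a1 read 17.9 units in sham, 21.3 after a single ECS, 106 after 10 ECS and 88.1 after 11 ECS (2.05, or 0.82 with a floor of 50 units). Col6a1 read 38.8, 53.2, 164 and 170 units (1.67), and Col1a2 59.0, 60.6, 151 and 141 units (1.22). Col5a2 was dimmer at 26.9 and 56.3 units (1.07, or 0.17 with a floor of 50 units).

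Col3a1 and Col1a2 are also markers of meninges and fibroblasts, tissue that can adhere to a dissected DG. That list had 2 of 11 measured genes at least 2-fold higher, 1 lower, and a median of 0.24, with summed signals of 3720, 3341, 2907 and 2700 units. Ogn, osteoglycin, was the lower one, with 241 units in sham, 176 after a single ECS, 33.4 after 10 ECS and 21.5 after 11 ECS (-3.03, or -1.81 with a floor of 50 units). Its other probe set was under the floor after 11 ECS and at least 8.47-fold lower. Dcn and Lum, named after their values were seen, gave 0.49 and 0.03. The part of adhering tissue in the collagen and Ogn values was not tested.

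Ttr, transthyretin, was the only measured one of 12 choroid plexus and ependymal markers on the array. It read 67.2 units in sham, 216 after a single ECS, 103 after 10 ECS and 76.9 after 11 ECS, a log2 ratio and list median of -1.49, with 0 higher and 1 lower. Its 2 other probe sets gave -1.61 and -1.75. Aqp1, F5, Kcne2, Otx2 and Slc4a5 were at the floor on all 4 arrays, and the summed signal of the list was 266, 332, 259 and 218 units. The part of choroid plexus tissue in the Ttr value was not tested.

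Some binding proteins were also higher. S100a6, a calcium binding protein, read 100 units in sham, 77.6 after a single ECS, 193 after 10 ECS and 217 after 11 ECS (1.49), and S100a10, of the same family, read 134, 114, 210 and 247 units (1.11, and 0.57 by its other probe set). Igfbp6, a binding protein for insulin-like growth factors, read 37.6, 40.8, 115 and 112 units (1.45, or 1.16 with a floor of 50 units). Blnk, an adaptor of immune receptor signalling, read 68.9, 45.1, 110 and 109 units (1.27). Cp, ceruloplasmin, read 52.5 units after the first ECS and 106 after the 11th (1.02), and Zdhhc6, a palmitoyltransferase, 52.5 and 105 (1.00). For Zdhhc6 the single ECS array alone was low, since sham read 133 units.

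Of 9 measured interferon response and major histocompatibility genes, 1 was at least 2-fold higher, 0 lower and 8 above 0, with a median of 0.54 that was 0.24 with a floor of 50 units. Bst2, tetherin, read 53.6, 26.4, 48.4 and 57.1 units (1.11, or 0.19 with a floor of 50 units). Ifitm3, an antiviral membrane protein, read 127, 97.4, 164 and 191 units (0.97). H2-K1, a class I heavy chain, read 188 units after the first ECS and 313 after the 11th (0.74), and H2-D1 171 and 251 (0.55). Both class I genes are read by _x_at probe sets, which can also hybridise to related genes, so their values are not separate readings. Microglia and complement genes showed 0 of 14 at least 2-fold apart and a median of 0.12, with Cx3cr1, the fractalkine receptor, at -0.60 and Cd68, a lysosomal protein of phagocytes, at 0.60 (0.24 with a floor of 50 units).

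The markers of the remaining cell types had few genes at least 2-fold apart. Endothelial and pericyte markers had 0 of 13 and a median of 0.12. Among them Kdr, a VEGF receptor, read 27.7 and 54.8 units (0.98, or 0.13 with a floor of 50 units), Vwf, von Willebrand factor, 39.1 and 65.0 units (0.73, or 0.38), and Esam, an endothelial adhesion molecule, 88.8 and 127 units (0.51). Oligodendrocyte and precursor markers had 0 of 14 and a median of -0.13. Among GABAergic interneuron markers, 1 of 13 was at least 2-fold higher, 0 lower, and the median was -0.13. The one was Npy, which seizures are known to induce also in GCs. Markers of CA1, CA3 and mossy cells had 0 of 5 at least 2-fold apart, 4 above 0 and a median of 0.27. One of them, Neurod6, read 1099 and 930 units, well above the floor on both arrays.

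Housekeeping and metabolic lists lay near 0. The medians were -0.07 for 31 oxidative phosphorylation genes, 0.02 for 20 genes of glucose use and glycolysis, and -0.08 for 25 cytosolic ribosomal protein genes. In these lists 0 genes were at least 2-fold apart except Rps27, a ribosomal protein gene, at 54.9 and 118 units (1.10). Its probe set was dim beside bright members of that list such as Rps29, at 9766 and 8209 units, so this ratio rests on a weak signal. Chaperones and endoplasmic reticulum stress genes had 0 of 23 at least 2-fold apart and a median of -0.08, with Dnajb1, a cochaperone of Hsp70, at 1391 and 800 units (-0.80).

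Of 19 sterol synthesis genes, 16 were above 0 and 0 at least 2-fold apart, with a median of 0.23. Hmgcs1, the cytosolic HMG-CoA synthase, read 2315 units in sham, 2378 after a single ECS, 3337 after 10 ECS and 3141 after 11 ECS (0.40), and its 3 other probe sets gave 0.37, 0.48 and 0.41. Msmo1, a sterol demethylase, gave 0.40 and Dhcr7, which completes cholesterol, 0.42. Among 10 cell cycle and replication genes, 1 was at least 2-fold higher, 0 lower, and the median was 0.21, but -0.18 over the members with over 100 units. Mcm2, a helicase subunit, was the one at 34.1 and 71.6 units (1.07, or 0.52 with a floor of 50 units), while Mcm6 of the same complex read 203 and 164 (-0.31).

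Lists of excitability genes had medians a little below 0, with most members below 0. Glutamate and GABA receptors had 0 of 11 genes at least 2-fold apart, 9 below 0 and a median of -0.18. Gria1, an AMPA receptor subunit, read 2563 and 2069 units (-0.31, and -0.27 by its other probe set). Potassium, sodium and HCN channels had 0 of 19, 14 below 0 and a median of -0.13, with Kcna1 at -0.47 and Kcnk1 at 0.52. Calcium signalling genes had 0 of 25 at least 2-fold apart, 21 below 0 and a median of -0.08, with Cacna1a at -0.48 and Camkk2 at -0.36.

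**Figure D3:**
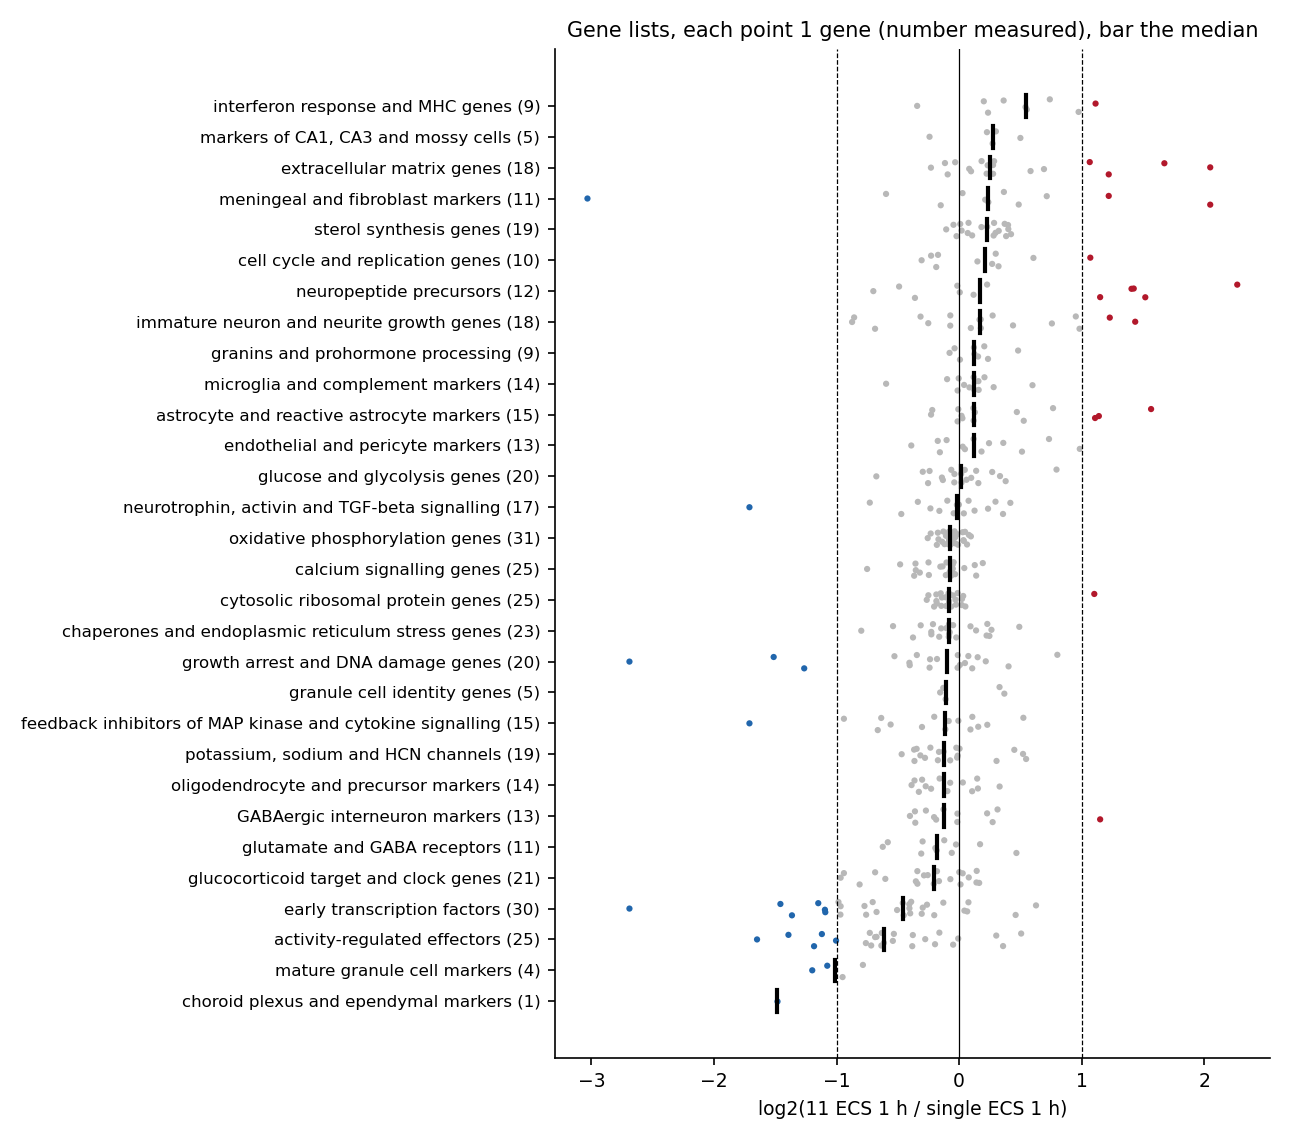
Log2 ratio of 11 ECS over single ECS (horizontal axis) for the genes of 30 lists, each point 1 gene read by its brightest probe set, the bar the list's median and the dashed lines 2-fold. Early transcription factors (median -0.46) and effectors (-0.61) spread to the left, mature GC markers lie at a median of -1.01, and the neuropeptide precursors (0.17) have 5 points beyond 2-fold on the right.

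A difference between both 1 h arrays can already be there before the last ECS. The comparison of 10 ECS at 48 h with sham uses the other 2 arrays and shares none with 11 ECS against single ECS, so the ratios were set side by side. Of the 11183 probe sets, 32 (0.286%) were at least 2-fold higher after 10 ECS than in sham and 75 (0.671%) lower. With all arrays scaled to the same median these shares were 0.438% and 0.393%, since the median log2 ratio of 10 ECS over sham was -0.14.

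Of the 53 probe sets at least 2-fold higher after 11 ECS, 21 (39.6%) were also at least 2-fold higher after 10 ECS than in sham, 0 were at least 2-fold lower, and the median log2 ratio of 10 ECS over sham was 0.67. They included those of Penk (1.98), Col3a1 (2.56), Rprm (1.63), Grp (1.46), Npy (1.17) and Tmsb10 (1.25). A ratio of 10 ECS over sham above 0 was found for 40 of the 53 (75.5%), beside 25.3% of all 11183. With arrays scaled to the same median these shares were 80.4% and 52.7%. Seen from the other side, the 21 were 65.6% of the 32, and with arrays so scaled the shared probe sets were 46.9% of 49.

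Of the 80 probe sets lower after 11 ECS, 13 (16.2%) were also at least 2-fold lower after 10 ECS than in sham, 1 was at least 2-fold higher, and the median was -0.44. These 13 were 17.3% of the 75 probe sets lower after 10 ECS, and with arrays scaled to the same median the shared ones were 27.3% of 44. A ratio below 0 was found for 63 of the 80 (78.8%), beside 74.6% over all members. With arrays so scaled, the shares were 72% and 47.3%. Calb1 (-1.10), Rasd1 (-1.46), Rph3a (-1.14), Tenm1 (-1.45) and Ogn (-2.85) were low before the last ECS. Btg2 (0.13), Smad7 (-0.02), Junb (0.06), Egr4 (0.03) and Gadd45b (-0.07) were near their sham level. Other early genes were below their sham level, among them Arc (-0.81), Cenpa (-0.84) and Nr4a1 (-0.78). Fos (-0.75) and Egr1 (-0.88), both under 2-fold between the 1 h arrays, were below sham as well. The sham mice had been handled 1 h before dissection and the 10 ECS mice 48 h before. The part of recent handling in these ratios was not tested, and the folds that follow share this limit. Nr4a1 stood 10.4-fold over sham after the first ECS and 8.34-fold over 10 ECS after the 11th. For Egr1 these values were 5.78 and 9.21, and for Btg2 9.20 and 1.31.

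Where both 1 h signals exceeded 50 units, the shares were 8 of 20 (40%) for the higher and 6 of 47 (12.8%) for the lower probe sets. Over all 10523 such probe sets, 0.124% were at least 2-fold higher after 10 ECS than in sham and 0.437% lower. Across all 11183 probe sets, the ratios of both comparisons correlated with Pearson's r of 0.41 and Spearman's rho of 0.34, a description across probe sets, which are not independent replicates. The 10 ECS and 11 ECS arrays both carry repeated ECS, and the sham and single ECS arrays both lack it, so a difference between the batches of mice themselves would appear in both comparisons as well and cannot be told apart from repeated ECS.

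**Figure D4:**
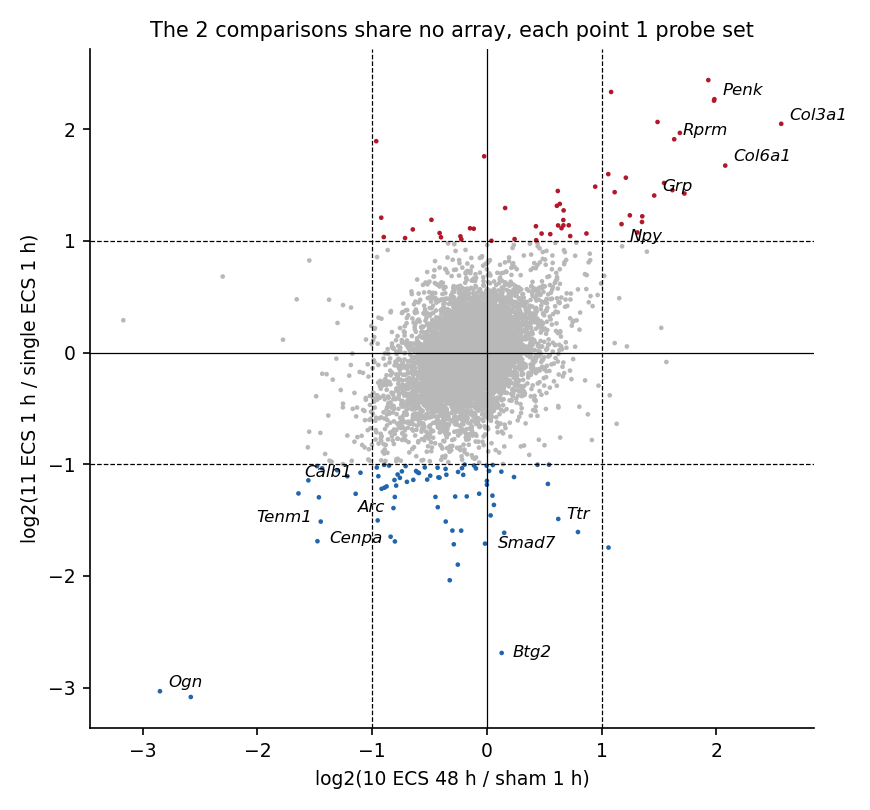
Log2 ratio of 11 ECS over single ECS (vertical axis) against that of 10 ECS over sham (horizontal axis), each point 1 of 11183 probe sets, coloured as in the plot by signal, with dashed lines at 2-fold. Red points gather in the upper right, with Penk at 2.27 and 1.98 and Col3a1 at 2.05 and 2.56. Some blue early genes such as Btg2 (-2.69 and 0.13) lie below the centre. Others such as Arc (-1.39 and -0.81) lie to the lower left, as does Calb1 (-1.08 and -1.10).

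Across the 130 named genes, 48 were at least 2-fold apart. Of these, 10 had other member probe sets, 12 in all, and 12 of the 12 had the same sign, with 10 at least 2-fold apart the same way. This count takes genes by their brightest probe set, so Polr2f and Lasp1, whose probe sets disagree, are not in it. The count covers only member probe sets of genes already picked as at least 2-fold apart. No such share was taken over all genes with several member probe sets. The count therefore cannot show whether these genes agree better than others. The higher dim genes with 1 member probe set each have no such second reading. Some of them, such as Col3a1, Cd44 and Igfbpl1, have a further probe set on the array. It was not a member, so it was not counted.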

How the data were processed

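RNA from the DG of 3 mice was pooled per array (Affymetrix Mouse Genome 430A 2.0), with 1 array in each of 4 groups. The authors amplified 100 ng of RNA and computed 1 MAS5 signal per probe set, and the deposited values are these intensity values on a linear scale. The MAS5 version and the scaling between arrays are not given in the sources used here, and the detection and change calls were not used. The number of arrays limits the precision.

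Members and gene lists were chosen with earlier results of these data known, as were the named genes. Any signal under 12 units (the 25th percentile over the 4 arrays) was raised to 12, called the floor, and a ratio with the dimmer array there is written as at least N-fold. Log2 ratios were taken per probe set, and a gene was read by its member probe set with the highest mean over the 4 arrays. No test was made. Of 22626 probe sets, 691 had several symbols and 1555 none, and both kinds were left out. Symbols come from the array's annotation, with 3 list symbols updated. Names and promoters come from RefSeq (GRCm38.p6).

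Named genes were the 15 highest and 15 lowest log2 ratios with over 50 units on both arrays, the 8 highest and 8 lowest with the dimmer array at 50 units or less and the brighter over 100, up to 4 members of each list farthest from 0, and Arc, Calb1, Dsp, Egr1, Fos, Gadd45b, Il1r1, Nr4a1 and Tdo2. The 31 lists cover early transcription factors, effectors, signalling, neuropeptides, GC state, metabolism, matrix, interferon response and the markers of other cell types, each given once in the results. Alternatives were a floor of 50 units, arrays scaled to the same median, quantile normalization, a limit of 100 units, no _s_at or _x_at probe sets (which can match several transcripts), the median over a gene's probe sets, and, chosen after seeing the data, over 50 units on both arrays. Python 3.11.15, pandas 2.3.3, numpy 2.4.6 and matplotlib 3.10.9 were used, and the ratio step was tested on simulated data.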

Additional observations from a re-analysis of the deposited data

Results flagged for a closer look

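Of the named genes with every signal over the floor, 2 responded to the first and to the 11th ECS in opposite directions, with 1 response at least 2-fold and the other beyond the SD between probe sets of 0.22. Ttr was higher after a single ECS than in sham (log2 ratio 1.68) and lower after 11 ECS than after 10 ECS (-0.43), a difference of responses of -2.11. Bst2 was lower after a single ECS (-1.02) and higher after the 11th (0.24), a difference of 1.26, on signals between 26.4 and 57.1 units. The sham array was the brightest (median 69.3 units, against 56.3 after a single ECS), and the median log2 ratio of single ECS over sham was -0.23 over all genes. With arrays scaled to the same median, the first response of Bst2 was -0.72, under 2-fold, and that of Ttr 1.98. The sham mice had been handled 1 h before dissection and the 10 ECS mice 48 h before, so both responses have unlike baselines. With 1 array per group, neither difference was tested.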

How the results depend on the processing

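The numbers of probe sets at least 2-fold apart depended on the dim ones. The main counts of 53 higher and 80 lower became 28 and 51 with a floor of 50 units, 28 and 51 with over 100 units on at least 1 array, and 20 and 47 with over 50 units on both arrays, an alternative chosen after seeing the data. They were 51 and 82 with arrays scaled to the same median, 52 and 72 after quantile normalization and 43 and 72 without _s_at and _x_at probe sets. Among the 31 list medians, 2 moved by more than their spread, those of cell cycle genes (-0.18 with over 100 units) and of interferon response genes (0.24 with a floor of 50 units). Of the 130 named genes, 18 moved so with a floor of 50 units, 7 with the median over a gene's probe sets and 1 without _s_at and _x_at probe sets, and none changed sign while at least 2-fold apart. No library could be left out, since each group has 1 array. No paired analysis was possible because each group has 1 sample and no test was made. Dim signals, and the lack of a repeat of any array, limit every ratio given here.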
